A study of Mus musculus with 3 samples.

Results

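The endothelial cells of injured mouse hearts were examined in an scRNA-Seq experiment that sorted cardiac leukocytes, so they are a minority that passed a gate meant for other cells. The 3 C57BL/6 conditions had 1 library each: hearts 3 days after sham surgery at postnatal day 10 with vehicle (P10-sham_vehicle), hearts 3 days after myocardial infarction (MI) at P10 with vehicle (P10-MI_vehicle), and the same MI with SB225002, an antagonist of the chemokine receptor CXCR2, given daily (P10-MI_SB225002). MI was made by ligating the left anterior descending coronary artery, all animals were 13 days old at collection, and the infarct and border zones of several pooled hearts gave the live cells with both CD45 and F4/80 that were sorted (CD45+F4/80+7AAD-). Surgery and the injections were shared by all 3 conditions, while the ligation was shared by the last 2.

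The cells were chosen by their own RNA. A cell was taken as endothelial when it had 500 to 30000 UMIs (unique molecular identifiers, each 1 captured RNA molecule), 500 to 5000 detected genes, under 10% of UMIs from mitochondrial genes, at least 4 of 8 endothelial markers detected (Cdh5, Cldn5, Gpihbp1, Tie1, Emcn, Aplnr, Podxl and Adgrl4), and under 0.3% of its UMIs from the macrophage genes C1qa, C1qb and C1qc. The rule took 249 of 10550 cells that passed the filters on UMIs, genes and mitochondrial share: 37 of 2352 in P10-sham_vehicle, 53 of 3454 in P10-MI_vehicle and 159 of 4744 in P10-MI_SB225002. These cells held 234319, 293194 and 753722 UMIs, with medians of 5628, 4115 and 3971 UMIs per cell, against 8629, 6446 and 5758 in the cells outside the rule. With 1 library per condition there is no replicate check. No test was made, every interval given covers counting error only, and a difference between libraries cannot be told apart from a difference between conditions.

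Endothelial cells line the blood vessels of the heart, and most of those in the myocardium belong to capillaries, which pass fatty acids from the blood to cardiomyocytes. They are held together by VE-cadherin (Cdh5) and claudin 5 (Cldn5). They bind the growth factor VEGF through the receptors Kdr and Flt1, angiopoietins through Tek, and lipoprotein lipase through Gpihbp1. After injury, surviving endothelial cells can re-enter the cell cycle and sprout into the damaged muscle.

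The label was checked on genes the rule did not use. Pecam1 (CD31), the usual surface marker of endothelium, was at 798, 802 and 801 CPM (counts per 1000000 UMIs of the summed endothelial cells) in the sham, MI and SB225002 libraries, the order kept in every list of 3 values, against 14.0, 15.7 and 17.8 CPM in the cells outside the rule. Kdr was at 1118, 1027 and 986 CPM against 5.65, 4.26 and 11.3 outside, and Flt1, the decoy receptor of VEGF, at 990.1, 1054 and 789 CPM. Of the 12 further endothelial markers, all 12 were detected in each library. Ptprc, which encodes the CD45 on which the cells were sorted, was at 8.54, 98.9 and 27.9 CPM in the endothelial cells, in 1, 8 and 11 cells, against 311, 342 and 284 CPM outside the rule. Adgre1, which encodes F4/80, was at 12.8, 17.1 and 22.6 CPM against 477, 408 and 358. The labels name the sorted cells as macrophages and monocytes. By these genes the summed RNA of the 249 cells was endothelial and was lower in both sort markers than that of the cells outside the rule. Sums do not show what each cell was, and cells with RNA of other types are described below.

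The 8 markers that chose the cells are given as a description. Cdh5 was at 1041, 1057 and 1012 CPM, Gpihbp1 at 1464, 1190.3 and 1404 CPM, and Aplnr, the apelin receptor, at 184, 334 and 474 CPM. Cldn5 was at 474, 222 and 456 CPM and Emcn, a sialomucin of capillaries and veins, at 277, 413 and 460.4 CPM. Tie1 was at 282, 338 and 309, Podxl at 256, 429.8 and 452 and Adgrl4 at 542, 675 and 454 CPM. The median cell held 6, 7 and 6 of the 8 markers. Just inside the threshold, 29 cells held exactly 4 markers, with a median of 2747 UMIs, 796 CPM of Pecam1 and 503 CPM of the myeloid gene Lyz2. Just outside it, 38 cells held 3 markers, with a median of 2341 UMIs, 798 CPM of Pecam1 and 605 CPM of Lyz2. The limit on C1q removed 15, 8 and 55 cells that held 4 or more markers. The highest C1q share inside the rule was 0.251%, 0.282% and 0.288%, and the lowest outside was 0.465%, 0.422% and 0.319%.

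RNA of other cell types was unevenly spread over the endothelial cells. A cell was called mixed when 0.5% or more of its UMIs came from macrophage, monocyte, neutrophil, fibroblast, mural or erythroid markers, a limit chosen after seeing the data. Mixed cells numbered 3 of 37, 10 of 53 and 21 of 159. In P10-MI_vehicle the summed neutrophil markers reached 22555 CPM, and 1 cell of 20479 UMIs, 6565 of them from these markers, held 99.3% of the sum. The macrophage list summed to 521, 3363 and 2079 CPM in the endothelial cells, against 21477, 19588 and 22348 CPM outside the rule. Haemoglobin and Alas2 UMIs summed to 2987, 2705 and 35.8 CPM, of which 1 cell held 99.7% in P10-sham_vehicle and another held 88.1% in P10-MI_vehicle. The fibroblast list summed to 137, 143 and 487 CPM, the mural list to 282, 119 and 191 CPM and the cardiomyocyte list to 1118, 750 and 959 CPM, with 325, 206 and 252 CPM of the last outside the rule. None of the 6 markers of T and NK cells was detected. Values over the 34, 43 and 138 unmixed cells are given beside some of the results. Between libraries, 1260 to 1844 barcodes were shared, which is 22.6% to 40.9% of a library's barcodes, and of the endothelial cells 1 barcode was shared, between P10-sham_vehicle and P10-MI_SB225002.

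**Figure D1:**
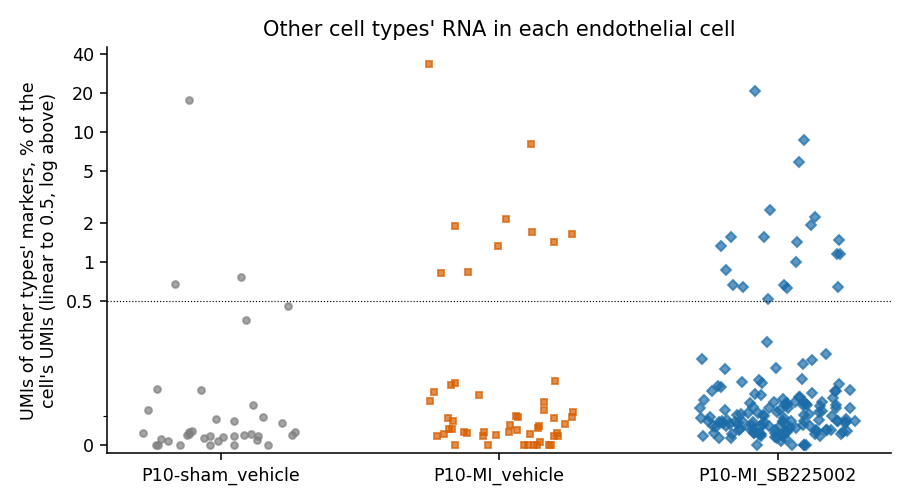
Percent of each endothelial cell's UMIs that came from the summed macrophage, monocyte, neutrophil, fibroblast, mural and erythroid markers, 1 point per cell, by library (linear to 0.5%, log above). Most cells lie under the dotted line at 0.5%, and 3, 10 and 21 cells lie at or above it, the highest at 17.7%, 33.6% and 20.6%.

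Beyond the markers, the endothelial cells of all 3 libraries shared a set of genes that were almost absent from the cells outside the rule. Fabp4, a fatty acid carrier of capillary endothelium, was at 23775, 19240 and 18776 CPM, against 156, 109.9 and 258 CPM outside the rule. Egfl7, which endothelial cells secrete into their matrix, was at 781, 607 and 689 CPM, Cav1, the coat protein of caveolae, at 1349, 989 and 1337 CPM, and Ly6c1, a surface protein of capillaries, at 1285, 1330.2 and 1309.5 CPM. The largest ratios over the cells outside the rule included those of Ushbp1 at 226, 225 and 222 CPM, Cyyr1 at 772, 604 and 402 CPM and Btnl9 at 478, 334 and 304 CPM, all with under 4 CPM outside. Wt1, a transcription factor of epicardium and of growing coronary vessels, was detected in 16, 17 and 56 endothelial cells at 145, 109 and 102 CPM, with 0.513, 0.387 and 1.40 CPM outside. Of the 5 mesothelial markers, 2 were detected in each library, Wt1 and Krt19, and the list summed to 175, 123 and 105 CPM. The markers Upk3b, Msln and Lrrn4 were at 0 UMIs in these cells. These genes describe cells that were chosen for endothelial markers, so their levels over the rest are not a test.

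Clustering of the 249 cells on 1000 variable genes, centred within each library, gave 8 clusters. The names come from marker lists, and the rule that applies them was set after the leading genes had been seen. The largest, of 50 cells (10, 16 and 24 per library), was capillary-like. Its leading genes held the interferon-induced Iigp1 and Ifit3, in 17 and 9 of its cells, and Cd274, which encodes PD-L1, in 9. Gm12002 and the capillary marker Aqp7, also among its leading genes, were in 26 cells each. Another capillary-like cluster of 48 cells (6, 9 and 33) was led by Timp4 and Car4 and also held the cardiomyocyte genes Tnni3 and Myl2 among its leading genes. A venous-like cluster of 40 cells (4, 13 and 23) was led by Lrg1 and Nr2f2, the regulator of venous identity. An arterial-like cluster of 18 cells (1, 2 and 15) was led by Sema3g and by Gja5 and Gja4, the connexins of arterial endothelium. A dividing-like cluster of 22 cells (3, 1 and 18) was led by histone genes, Cdc20 and Kif11.

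The other 3 clusters had no name. One of 40 cells (9, 3 and 28) was led by the replication genes Hells and Mcm2, in 11 and 9 of its cells. Its leading genes also held Apln and Adm, a pair of peptides made by sprouting endothelium, in 20 and 15 cells. Rgs5, a pericyte marker, was in 9, and 6 of its cells were mixed. The next, of 20 cells (2, 7 and 11), was led by S100a9, S100a8 and Lyz2, and 19 of its cells were mixed. The last, of 11 cells (2, 2 and 7), was led by Col3a1, Dcn and the endocardial gene Cdh11, and 5 of its cells were mixed. Other resolutions gave 6 and 10 clusters, and no centring gave 8. Cluster sizes are given as a description and were not tested between conditions, because genes that define clusters, such as Apln and Mki67, differed between libraries.

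The share of endothelial cells addresses how many of them were carried through the sort in each condition. It was 1.57% (1.11 to 2.16, 95% Clopper-Pearson interval) in P10-sham_vehicle, 1.53% (1.15 to 2.002) in P10-MI_vehicle and 3.35% (2.86 to 3.904) in P10-MI_SB225002. Between P10-MI_SB225002 and P10-MI_vehicle it differed by 1.82 percentage points (1.14 to 2.49, Newcombe), and between P10-MI_vehicle and P10-sham_vehicle by -0.039 points (-0.741 to 0.620). With cells of 4 or more markers counted over all barcodes, before any filter, the shares were 2.01%, 1.44% and 3.91%. Of the cells under the C1q limit, endothelial cells made up 15.6%, 5.63% and 10.7%, so the order of P10-sham_vehicle and the others depends on the population they are counted against. The sort selected for CD45 and F4/80, and its part in these shares was not tested. Fewer cells of a type in the tissue and fewer that passed the gate cannot be told apart.

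**Figure D2:**
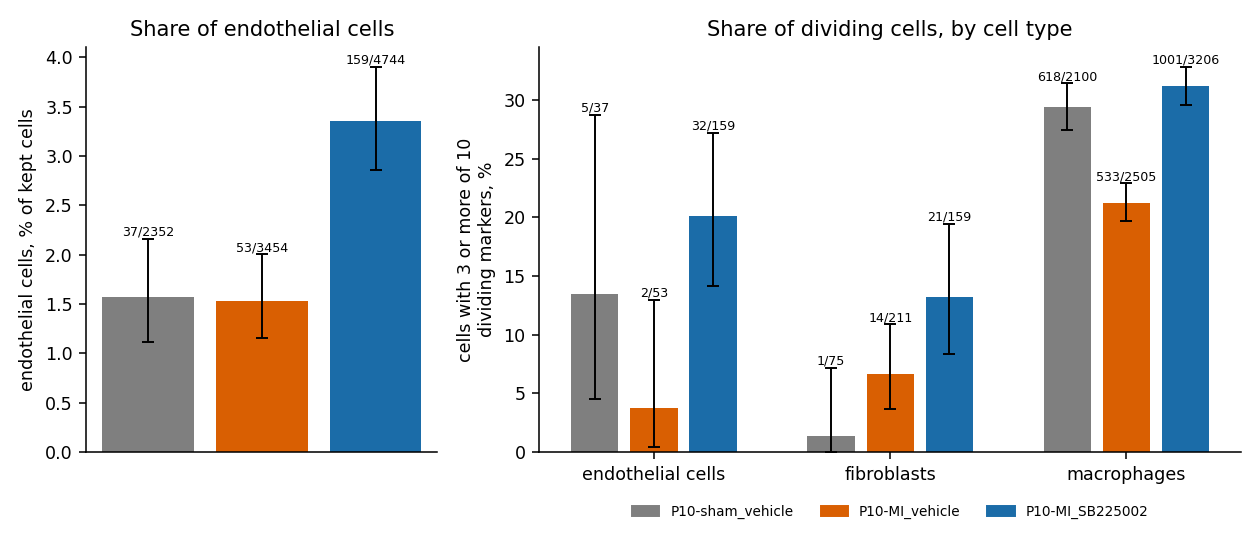
Left, endothelial cells as percent of the kept cells of each library. Right, cells with 3 or more of 10 dividing markers as percent of the endothelial cells, fibroblasts and macrophages of each library. Bars start at 0, error bars are 95% Clopper-Pearson intervals, and the numbers above them are cells over all cells of that kind. P10-MI_SB225002 stands highest in the endothelial panel (159 of 4744 cells) and among endothelial cells that were dividing (32 of 159).

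The effect of MI was addressed by P10-MI_vehicle over P10-sham_vehicle. A gene was measured when the endothelial cells of the pair held 20 or more of its UMIs. Of 4664 such genes, rule genes left out, 5.21% were 2-fold or more higher and 4.63% were 2-fold or more lower, or 9.84% in either direction, with a median log2 ratio of -0.06. Over unmixed cells 4.12% were higher and 4.93% were lower. Counts of list members below are read against these shares. Plvap, which forms the diaphragms of fenestrae and caveolae in permeable endothelium, was at 34.1 CPM (14.7 to 67.3) in P10-sham_vehicle, 205 CPM (156 to 263) in P10-MI_vehicle and 149 CPM (122 to 179) in P10-MI_SB225002. It was detected in 2, 13 and 26 cells, and its log2 ratio after MI was 2.58 (95% interval 1.51 to 3.86), or 3.12 over unmixed cells. In P10-MI_vehicle 1 cell held 31.7% of the Plvap UMIs. Igfbp3, a binding protein of insulin-like growth factors made by sprouting endothelium, was at 38.4, 174 and 71.6 CPM, a log2 ratio of 2.18 (1.14 to 3.39). It was detected in 7 of 37 and 13 of 53 cells, and 1 cell of P10-MI_vehicle held 35.3% of its UMIs there. Col15a1, a collagen of the basement membrane zone of capillaries, was at 248, 569.6 and 431 CPM, a log2 ratio of 1.20 (0.76 to 1.66). It was detected in a smaller share of the cells after MI, 28 of 53 against 25 of 37. In all 3 genes P10-MI_vehicle was the highest library.

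Several other genes were higher after MI. Cdk8, a kinase of the Mediator complex, was at 388, 999 and 459 CPM, a log2 ratio of 1.36 (1.02 to 1.72), and was detected in 34 of 37 and 44 of 53 cells. Its log2 ratio after MI was 0.26 in fibroblasts and 0.88 in macrophages. Slco2a1, the prostaglandin transporter, was at 42.7, 143 and 45.1 CPM, a log2 ratio of 1.75 (0.73 to 2.91) that was -0.076 after each cell was thinned to 1000 UMIs. Before thinning Slco2a1 had 42 UMIs in P10-MI_vehicle and 10 in P10-sham_vehicle, so the thinned value rests on few UMIs. Bmp6, a BMP ligand made by endothelium, was at 89.6, 184 and 126 CPM, a log2 ratio of 1.04 (0.29 to 1.84), which was 0.08 when cells needed 3 of the 8 markers. Vwf, which tethers platelets at injured vessel walls, was at 111, 194 and 130.0 CPM, a log2 ratio of 0.81 (0.12 to 1.54), or 2.29 over unmixed cells. Hmcn1, an extracellular matrix protein, was at 154, 334 and 187 CPM, a log2 ratio of 1.12 (0.56 to 1.71) that was -0.15 when cells needed 5 or more of the 8 markers. It was detected in 14 of 37 and 20 of 53 cells, and 1 cell of P10-MI_vehicle held 38.8% of its UMIs there. Lrg1, a glycoprotein that modifies TGF-beta signals in vessels, was detected in 1 cell of P10-sham_vehicle and 12 of P10-MI_vehicle, with a log2 ratio of 1.38 that was 0.62 over unmixed cells. The venous-like cluster had Lrg1 in 23 and Vwf in 21 of its 40 cells. It held 4 of the 37 sham cells, or 10.8% (3.03 to 25.4), and 13 of the 53 cells of P10-MI_vehicle, or 24.5% (13.8 to 38.3). At a clustering resolution of 1.5, Lrg1 and Plvap led a cluster with 1 sham cell and 7 cells of P10-MI_vehicle. These were 2.70% (0.068 to 14.2) and 13.2% (5.48 to 25.3) of the cells. The intervals overlapped at both resolutions. The part of these shares in the ratios of Plvap, Vwf and Lrg1 was not tested.

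Lpl, Id3 and Tbx3 were among the genes lower after MI. Lpl, lipoprotein lipase, was at 717 CPM (613 to 834), 368 CPM (302 to 445) and 301 CPM (263 to 343), a log2 ratio of -0.96 (-1.32 to -0.60) after MI. P10-sham_vehicle stood above both MI libraries and their intervals did not overlap its own. Of the 12 genes of fatty acid handling, 10 were measured and 0 were past 2-fold in either direction, with a median of -0.32 that was -0.05 over unmixed cells, where 1 of 9 was lower. Cd36, the fatty acid translocase, was at 3738, 3312 and 2474 CPM. Id3, a target of BMP signals, was at 1225, 709 and 796 CPM, a log2 ratio of -0.79 (-1.05 to -0.53), while 2 of the 12 measured genes of BMP and TGF-beta signalling were 2-fold higher and 0 lower. Ramp2, the partner of the adrenomedullin receptor, was at 717, 454 and 564 CPM, and its log2 ratio of -0.66 (-0.9996 to -0.32) was -0.19 over unmixed cells. Vegfa was at 76.8, 23.9 and 14.6 CPM, a log2 ratio of -1.69 (-3.19 to -0.36). Tbx3, a T-box transcription factor, was detected in 20 and 9 cells at 154, 37.5 and 54.4 CPM, a log2 ratio of -2.03 (-3.16 to -1.03). Snx25, a sorting nexin, was detected in 21 and 7 cells at 128, 34.1 and 50.4 CPM.

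**Figure D3:**
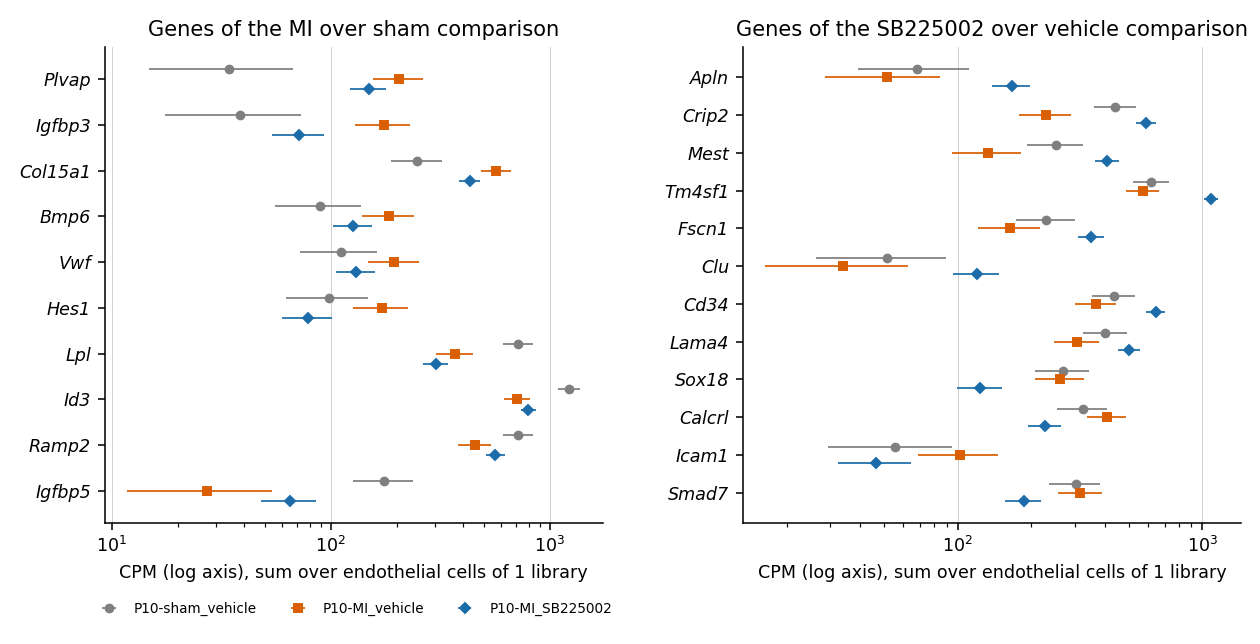
CPM (log axis) of named genes summed over the endothelial cells of each library, with 95% Poisson intervals of counting error. Left, genes of the comparison of MI with sham, where Plvap, Igfbp3 and Col15a1 are highest in P10-MI_vehicle and Lpl is highest in P10-sham_vehicle. Right, genes of the comparison of SB225002 with vehicle after MI, where Apln, Crip2 and Mest are highest in P10-MI_SB225002.

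Some of the largest ratios rested on 1 or a few cells. The ranked genes higher after MI also held H2-Aa, Mmp12 and Cdh11, each in 2 cells of P10-MI_vehicle, and H19, an imprinted long noncoding RNA, of whose UMIs 1 cell held 76.0%. Those lower held Ahsg, Lsamp, Hamp and Prox1, a regulator of lymphatic identity, of each of which 1 cell of P10-sham_vehicle held 96.3% to 100% of the UMIs. Likewise 1 cell held 80.0% of Sdk1 and 56.1% of Igfbp5, and Pcsk5 and Gm11290 were detected in 9 and 7 cells of P10-sham_vehicle and 3 each of P10-MI_vehicle. Of 8 measured genes of MHC and antigen presentation, 4 were 2-fold higher after MI. These were the class II genes Cd74, H2-Aa, H2-Ab1 and H2-Eb1, detected in at most 5 endothelial cells of P10-MI_vehicle. Over unmixed cells 4 genes of the list were measured and 0 were past 2-fold.

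The other lists held few genes past 2-fold after MI. Of the lists that mark kinds of vessel, capillary genes had 1 of 10 higher, arterial genes 1 of 12, venous genes 2 of 6 and tip cell genes 1 of 9, with 0 lower in each, endocardial genes 2 of 3 higher and lymphatic genes 0 of 2 higher and 1 lower. Over unmixed cells, 4 of 10 arterial genes were higher. Of the immediate-early genes, whose transcripts appear within minutes of a stimulus, 19 were measured and 0 were past 2-fold, with a median of 0.21. Of the endothelial transcription factors, all 18 were measured and 0 were past 2-fold, with a median of -0.17 that was 0.13 over unmixed cells. Signalling by VEGF, angiopoietin and Notch had 0 of 15 higher and 1 lower, heat shock genes 0 of 7 in either direction and interferon-stimulated genes 1 of 10 higher. Flow-responsive genes had 1 of 10 higher, vasoactive genes 1 of 9, junction and barrier genes 1 of 11, adhesion and chemokine genes 1 of 7, and haemostasis genes 0 of 5. Glycolysis and hypoxia genes had 1 of 13 lower. Basement membrane and matrix had 2 of 17 higher and 1 lower, with Fn1, fibronectin, at 747, 385 and 735 CPM and a log2 ratio of -0.95 (-1.31 to -0.60) that was 0.84 when cells needed 5 or more of the 8 markers. Of the secreted signals of endothelium, 2 of 9 were higher and 1 was lower, and the mesenchymal transition genes had 1 of 4 higher, S100a4, whose ratio was negative over unmixed cells. Of DNA replication genes 6 were measured, 0 were higher and 2 were lower, Mcm7 at -2.41 and Rrm1 at -1.22, with a median of -0.75. This median was -0.10 with 1 of 5 lower without cells that held leukocyte genes, and -0.49 with 1 of 4 lower when C1q was under 0.1% of UMIs.

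The effect of SB225002 after MI was addressed by P10-MI_SB225002 over P10-MI_vehicle, a comparison that shares its P10-MI_vehicle library with the one above. Of 7330 genes measured, 9.73% were 2-fold or more higher and 3.36% were 2-fold or more lower, or 13.1% in either direction. Of those past 2-fold, 74.3% were higher, and this was 62.3% with the size factors of DESeq2 and 64.4% with TMM. The median log2 ratio of all genes was 0.12, and these scalings moved it to -0.01 and 0.00. Over unmixed cells 10.2% were higher and 3.72% were lower. With no minimum count, 1350 of 15569 genes were 2-fold or more higher and 3866 were lower, but a count of 0 was set to the floor of 3 counts. A gene with few UMIs in P10-MI_SB225002 and 0 in P10-MI_vehicle could thus count as lower. These counts with no minimum therefore give no direction.

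More of the endothelial cells held markers of cell division in P10-MI_SB225002. A cell was called dividing when it held 3 or more of 10 markers of the G2 and M phases (Mki67, Top2a, Cdk1, Birc5, Ccnb2, Cdc20, Cenpf, Ube2c, Hmmr and Tpx2), which were 5 of 37 cells in P10-sham_vehicle, or 13.5% (4.54 to 28.8), 2 of 53 in P10-MI_vehicle, or 3.77% (0.460 to 12.98), and 32 of 159 in P10-MI_SB225002, or 20.1% (14.2 to 27.2). The share with SB225002 was 16.4 points above vehicle (5.40 to 24.2, Newcombe), and 16.5 points (4.81 to 24.4) over unmixed cells. MI and sham differed by -9.74 points, with an interval of -25.4 to 3.12 that includes 0. Cells with 6 or more of the markers numbered 0, 0 and 19. Dividing cells had a median of 7501 UMIs in P10-MI_SB225002 and the others 3684. Thinned to 1000 UMIs per cell, 0 of 37, 0 of 52 and 12 of 157 cells were called, so that the difference was 7.64 points (-0.108 to 12.97), and 1 and 2 cells of the MI libraries were too shallow to be thinned.

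The same markers were counted in the fibroblasts and macrophages of each library. In fibroblasts, taken as cells outside the rule with at least 4 fibroblast markers and C1q under the same limit, 1.33% (0.0338 to 7.21), 6.64% (3.67 to 10.9) and 13.2% (8.37 to 19.5) were dividing, a difference of 6.57 points (0.132 to 13.5) between SB225002 and vehicle. In macrophages, taken as cells with C1q at or over 0.3% of UMIs and fewer than 4 endothelial markers, the shares were 29.4%, 21.3% and 31.2%, a difference of 9.95 points (7.64 to 12.2). Thinned to 1000 UMIs, the shares were 0%, 0.990% and 3.25% in fibroblasts and 10.4%, 8.36% and 10.3% in macrophages. Fibroblasts had a median of 7407 UMIs with SB225002 and 5935 with vehicle. Their thinned difference was 2.26 points, with an interval of -1.09 to 6.51 that includes 0. In macrophages it was 1.96 points, with an interval above 0. Summed, the markers were at 357 and 343 CPM in fibroblasts with SB225002 and vehicle, and at 998 and 756 CPM in macrophages. The point difference in share was thus positive in all 3 cell types, but in fibroblasts the summed markers differed little. Whether it was larger in endothelial cells was not tested.

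Of the 15 genes of mitosis, 14 were measured and all 14 were 2-fold or more higher with SB225002, against 9.73% of all genes, with a median of 3.15. Over unmixed cells these were 13 of 13 with a median of 2.97. The list shares most of its genes with the markers that call a cell dividing. Mki67, the proliferation antigen Ki-67, was at 68.3 CPM (39.0 to 111), 3.41 CPM (0.0864 to 19.0) and 237 CPM (204 to 275), detected in 6, 1 and 35 cells, and its log2 ratio was 6.12 (95% interval 3.63 to 11.43) on 1 UMI in P10-MI_vehicle. Outside the rule Mki67 was at 235, 166 and 178 CPM. Top2a, the topoisomerase of chromosome segregation, was at 38.4 CPM (17.6 to 72.9), 13.6 CPM (3.72 to 34.9) and 147 CPM (121 to 177), a log2 ratio of 3.43 (2.04 to 5.33). Cdk1, the kinase that drives entry into mitosis, was at 12.8, 20.5 and 92.9 CPM, a log2 ratio of 2.18 (0.99 to 3.68). The kinetochore gene Cenpf was at 25.6, 10.2 and 130.0 CPM, a log2 ratio of 3.67 (2.08 to 5.97). In each of them P10-MI_SB225002 was the highest library and the intervals of its level and that of P10-MI_vehicle did not overlap.

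Ube2c, the ubiquitin-conjugating enzyme of the anaphase-promoting complex, was at 4.27, 10.2 and 102 CPM, a log2 ratio of 3.32 (1.72 to 5.63), and the cyclin Ccnb2 at 8.54, 10.2 and 80.9 CPM, a log2 ratio of 2.98 (1.37 to 5.30). Birc5, survivin, was at 12.8, 3.41 and 94.2 CPM and the centromeric histone Cenpa at 25.6, 3.41 and 95.5 CPM. Ccnb1, Cdc20 and Hmmr had 0 UMIs in the endothelial cells of both P10-sham_vehicle and P10-MI_vehicle. Against a floor of 3 counts in P10-MI_vehicle their log2 ratios were 1.81, 2.81 and 2.05. Nusap1, at 0 UMIs in P10-MI_vehicle, had a log2 ratio of 2.48 against the same floor. These are point values set by the floor, not lower bounds. Aurka had fewer than 20 UMIs and was not measured.

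Genes of DNA replication were also higher with SB225002. Of 13 measured, 12 were 2-fold or more higher and 0 lower, with a median of 1.65. Over unmixed cells these were 10 of 12 with a median of 1.31. Pcna, the sliding clamp of DNA polymerase, was at 81.1 CPM (48.8 to 127), 40.9 CPM (21.1 to 71.5) and 129 CPM (104 to 157), a log2 ratio of 1.65 (0.78 to 2.65). Tyms, thymidylate synthase, was at 72.6, 51.2 and 107 CPM, a log2 ratio of 1.07 (0.26 to 1.97). When the dividing cells were left out of both libraries, 6 of these genes could be measured, 0 were past 2-fold and the median was 0.55. In macrophages 0 of 15 DNA replication genes and 0 of 15 mitosis genes were past 2-fold, where 1.53% of all genes were higher, with medians of 0.41 and 0.53. In fibroblasts 9 of 14 replication genes and 1 of 14 mitosis genes were 2-fold higher, where 2.95% of all genes were.

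**Figure D4:**
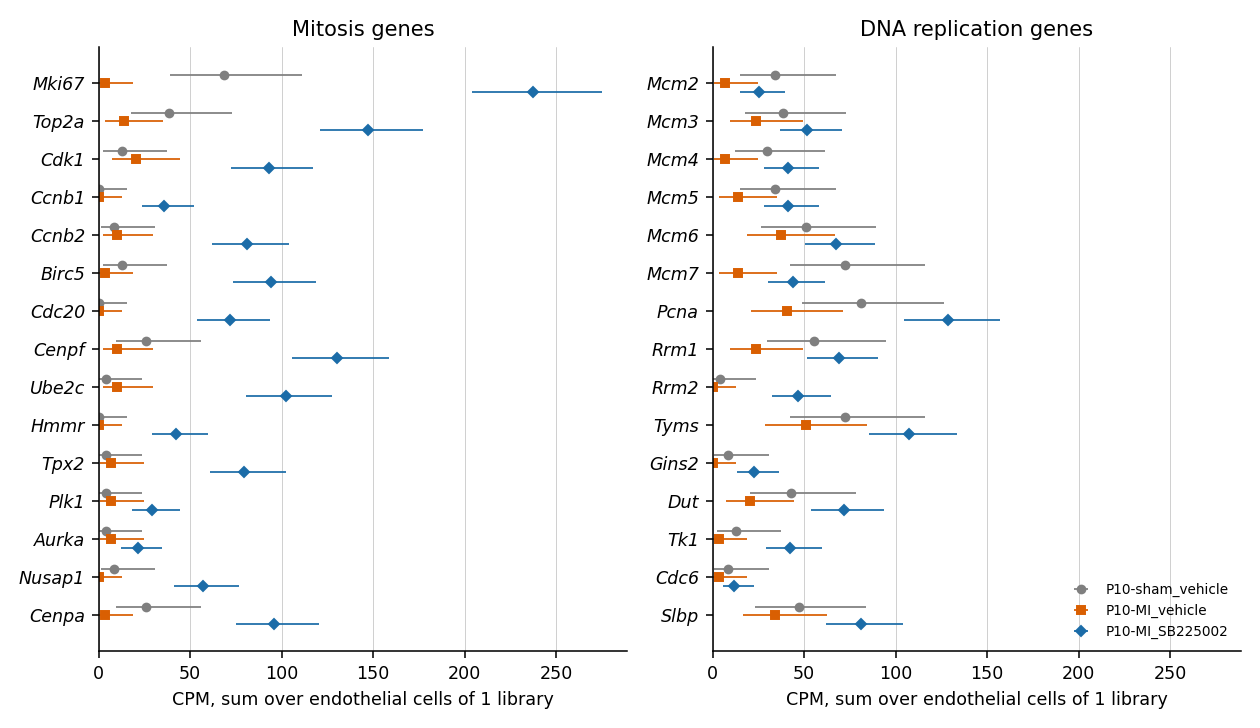
CPM of mitosis genes (left) and DNA replication genes (right) summed over the endothelial cells of each library, with 95% Poisson intervals of counting error, on a linear axis from 0. P10-MI_SB225002 lies to the right for nearly all genes, as for Mki67 at 237 CPM and Top2a at 147 CPM, and P10-MI_vehicle lies near 0 for most mitosis genes.

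The promoters of the mitosis genes were searched for motifs they share. CCAAT is the box bound by the factor NF-Y, and it was searched on both strands in the 250 bases before the start site of each gene (RefSeq, GRCm38.p6). It was found in 12 of the 14 mitosis genes with a promoter sequence, and 11 of 14 had more than 1, where 33.8% of all 32817 promoters had the motif and 10.1% had more than 1. Of the DNA replication genes 9 of 13 had it and 6 had more than 1. TTTGAA, part of the element that represses cell-cycle genes in quiescence, was in 6 of the 14 mitosis promoters against 16.0% of all. Of the 20 immediate-early genes 15 had a promoter sequence, and Egr1 was not among them. Of these 15, 6 had CCAAT and 1 had the CArG box of serum response factor, which was in 1.47% of all. Every motif was searched in the same 250 bases, so sites farther from the start were not seen. A match of letters is a description of the promoter, and no binding was measured. The sequences below show 4 of the mitosis genes, with 6, 5, 3 and 2 matches in capitals, CCAAT on the gene's strand or ATTGG where the box lies on the other strand.
Top2a, chr11:99024190-99024439, strand -: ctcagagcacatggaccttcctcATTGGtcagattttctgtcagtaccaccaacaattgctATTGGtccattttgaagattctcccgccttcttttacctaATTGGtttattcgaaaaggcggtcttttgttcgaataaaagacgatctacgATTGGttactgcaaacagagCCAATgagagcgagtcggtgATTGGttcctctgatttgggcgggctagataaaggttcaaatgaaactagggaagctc
Hmmr, chr11:40733438-40733687, strand -: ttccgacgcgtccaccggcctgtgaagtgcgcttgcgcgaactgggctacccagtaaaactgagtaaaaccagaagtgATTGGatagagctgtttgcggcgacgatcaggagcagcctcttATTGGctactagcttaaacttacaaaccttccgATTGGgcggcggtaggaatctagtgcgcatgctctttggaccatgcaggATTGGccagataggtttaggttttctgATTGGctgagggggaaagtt
Ccnb2, chr9:70421555-70421804, strand -: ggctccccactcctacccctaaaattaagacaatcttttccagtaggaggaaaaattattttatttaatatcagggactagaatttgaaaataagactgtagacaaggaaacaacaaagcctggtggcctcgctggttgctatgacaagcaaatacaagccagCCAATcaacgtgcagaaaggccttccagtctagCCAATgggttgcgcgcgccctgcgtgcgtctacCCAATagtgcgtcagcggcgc
Cdc20, chr4:118437344-118437593, strand -: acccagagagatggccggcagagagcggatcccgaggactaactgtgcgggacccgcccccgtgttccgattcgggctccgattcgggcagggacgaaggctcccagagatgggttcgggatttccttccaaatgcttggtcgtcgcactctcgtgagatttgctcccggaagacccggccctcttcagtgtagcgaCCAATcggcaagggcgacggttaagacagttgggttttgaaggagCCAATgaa

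SB225002 went with lower levels of the immediate-early genes. Of 20 measured, 0 were 2-fold higher and 9 were 2-fold lower, against 3.36% of all genes lower, with a median of -0.89. Over unmixed cells these were 8 of 19 with a median of -0.92. Fos, a subunit of the factor AP-1, was at 358 CPM (286 to 444), 396 CPM (327 to 475) and 125 CPM (100.8 to 153), a log2 ratio of -1.67 (95% interval -2.07 to -1.26). Its partner Jun was at 815 CPM (704 to 939), 904 CPM (798 to 1019.5) and 407 CPM (363 to 456), a log2 ratio of -1.15 (-1.39 to -0.91). Fosb was at 184, 263 and 53.1 CPM, a log2 ratio of -2.31 (-2.90 to -1.74), and the zinc finger factor Egr1 at 457, 375 and 186 CPM, a log2 ratio of -1.01 (-1.38 to -0.64). In these 4 genes P10-MI_SB225002 stood under both vehicle libraries.

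The others past 2-fold were the nuclear receptor Nr4a1 at -1.48, the stress factor Atf3 at -1.75, Ctgf, a matricellular target of YAP, at -1.36, Ier3 at -1.10 and Zfp36, which destabilises cytokine mRNAs, at -1.02. Junb was at 439.6, 583 and 312 CPM, a log2 ratio of -0.90 (-1.19 to -0.61). In fibroblasts 3 of 20 of the list were 2-fold lower with a median of -0.70, where 3.76% of all genes were lower, and in macrophages 4 of 20 with a median of -0.58, where 4.07% were. The log2 ratio of Fos was -1.13 (-1.29 to -0.96) in fibroblasts and -0.99 (-1.03 to -0.95) in macrophages, and the interval of the difference of the endothelial from the macrophage ratio was -1.07 to -0.28. For Jun the interval of the difference of the endothelial from the fibroblast ratio was -0.16 to 0.38. Ier3 alone of these was higher in fibroblasts, at 0.58. Heat shock genes, which answer other stresses, had 0 of 8 past 2-fold in endothelial cells.

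**Figure D5:**
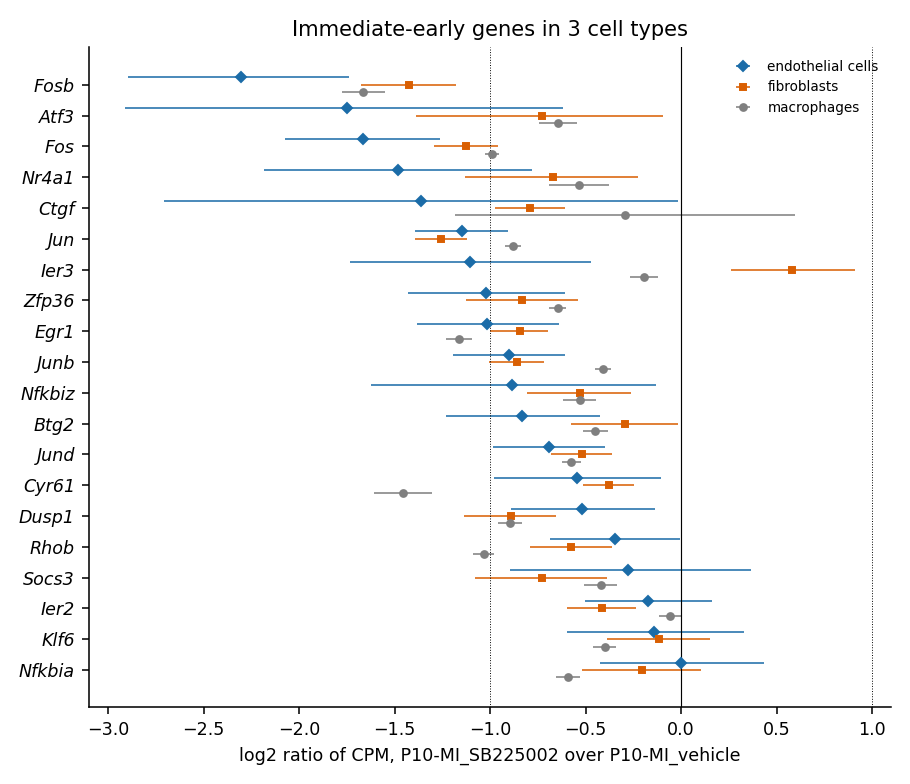
Log2 ratio of CPM, P10-MI_SB225002 over P10-MI_vehicle, of the immediate-early genes in endothelial cells (diamonds), fibroblasts (squares) and macrophages (circles), with 95% intervals of counting error and dotted lines at 2-fold. In endothelial cells 9 of 20 genes lie at or left of the lower dotted line, with Fosb at -2.31 and Fos at -1.67.

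Among the genes ranked highest with SB225002 were Apln, Mest and Crip2. Apln, apelin, the ligand of Aplnr made by sprouting endothelium, was at 68.3 CPM (39.0 to 111), 51.2 CPM (28.6 to 84.4) and 166 CPM (138 to 198), in 9, 9 and 48 cells, a log2 ratio of 1.70 (95% interval 0.92 to 2.58). Mest, an imprinted gene, was at 252, 133 and 409 CPM, detected in 18 of 53 cells with vehicle and 85 of 159 with SB225002, a log2 ratio of 1.62 (1.14 to 2.14). Crip2, a LIM domain protein of vessels, was at 439.6, 229 and 589 CPM, a log2 ratio of 1.37 (0.99 to 1.76). P10-MI_vehicle was the lowest library for Apln. The cytoskeletal genes Myh10, nonmuscle myosin, Fscn1, fascin, and Csrp1 were at log2 ratios of 1.62 (0.75 to 2.63), 1.10 (0.65 to 1.58) and 1.33 (0.63 to 2.11). Tm4sf1, a membrane protein of filopodia, was at 619, 569.6 and 1085 CPM, and the linker histone H1f0 had a log2 ratio of 1.35 (0.88 to 1.85). For Clu, clusterin, 1 cell held 46.7% of the UMIs in P10-MI_SB225002.

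Of the tip cell genes, which mark the leading cells of sprouts, 13 were measured, 1 was 2-fold higher and 2 were lower. The one higher was Apln, while Igfbp3 was lower at -1.28 (-1.86 to -0.70). The secreted signals of endothelium had 4 of 11 higher and 1 lower. Cd34, a sialomucin of capillary and tip cells, was at 435, 368 and 646 CPM, a log2 ratio of 0.81 (0.51 to 1.13). Dll4, the Notch ligand of arterial and tip cells, was at 81.1, 68.2 and 114 CPM, a log2 ratio of 0.74 (0.03 to 1.52), and Hes1, a target of Notch, at 98.2, 171 and 78.3 CPM, a log2 ratio of -1.12 (-1.69 to -0.55). Hes1 was the 1 gene past 2-fold of 16 measured in VEGF, angiopoietin and Notch signalling. Its log2 ratio was -0.65 in fibroblasts and -0.94 in macrophages. Flt1 had a log2 ratio of -0.42 (-0.62 to -0.21).

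Sox18, Klf4, Smad7, Id2 and Calcrl were among the genes lower with SB225002. Sox18, a factor of vascular development, was at 269 CPM (207 to 344), 263 CPM (207 to 328) and 123 CPM (99.6 to 151), a log2 ratio of -1.09 (-1.54 to -0.63), and it was the 1 of 18 endothelial transcription factors past 2-fold. Klf4, which laminar flow induces, had a log2 ratio of -0.72 (-1.08 to -0.36), while 0 of 10 flow-responsive genes were past 2-fold. Klf4 was lower in the other cells too, at -1.14 in fibroblasts and -1.13 in macrophages. Smad7 and Id2, both targets of TGF-beta or BMP signals, were at log2 ratios of -0.77 (-1.16 to -0.38) and -0.89 (-1.35 to -0.42). Calcrl, the adrenomedullin receptor, was at 324, 406 and 227 CPM, a log2 ratio of -0.84 (-1.19 to -0.49), and at -0.96 in fibroblasts and -0.44 in macrophages. Slco2a1 and Cdk8, both higher in P10-MI_vehicle than in sham, had log2 ratios of -1.67 (-2.36 to -0.98) and -1.12 (-1.35 to -0.89), a direction that shares the P10-MI_vehicle library. Cdk8 was lower in the other cells too, at -1.04 in fibroblasts and -1.30 in macrophages. Slco2a1 was at 1.27 in fibroblasts and -1.82 in macrophages. The haemoglobin genes Hba-a1, Hba-a2, Hbb-bs and Hbb-bt were also ranked lowest, and 1 cell of P10-MI_vehicle held 85.9% to 95.3% of each gene's UMIs there. H2-Aa, Mmp12 and Cdh11, in 2 cells each of P10-MI_vehicle, and H19, 76.0% of it in 1 cell, completed the ranked genes.

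Adhesion and chemokine genes had 1 of 13 higher and 2 lower. Icam1, which binds leukocytes on inflamed endothelium, was at 55.5, 102 and 46.4 CPM, a log2 ratio of -1.14 (-1.89 to -0.39), and Cxcl12, the ligand of Cxcr4, at 1208, 1173 and 803 CPM, a log2 ratio of -0.55 (-0.74 to -0.35). Icam2, which is expressed in resting endothelium, had a log2 ratio of 0.62 (0.26 to 0.98). Of the genes of MHC and antigen presentation, 4 of 9 were 2-fold lower, the class II genes carried by a few cells of P10-MI_vehicle, and over unmixed cells 0 of 5 were, while the class I genes H2-D1 and H2-K1 were at log2 ratios of 0.66 (0.33 to 1.0042) and 0.72 (0.28 to 1.18). Interferon-stimulated genes had 2 of 15 higher, with Bst2, tetherin, at 0.57 (0.22 to 0.93).

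Of the lists that mark kinds of vessel, capillary genes had 0 of 10 past 2-fold with SB225002 and venous genes 0 of 8, arterial genes had 1 of 12 lower and endocardial genes 2 of 3 lower, and 1 lymphatic gene was measured and was not past 2-fold. Structural and metabolic genes differed by less than 2-fold in most cases. Basement membrane and matrix genes had 0 of 18 past 2-fold, with Fn1 at 747 CPM (640.3 to 866), 385 CPM (318 to 463) and 735 CPM (675 to 799), a log2 ratio of 0.93 (0.64 to 1.24), so that P10-MI_vehicle lay under both other libraries, an order against sham that turned when cells needed 5 or more of the 8 markers. With SB225002 the log2 ratio of Fn1 was 0.68 in fibroblasts and 1.59 in macrophages. Sparc, a matricellular protein of growing vessels, had a log2 ratio of 0.55 (0.46 to 0.64) and Lama4, a laminin of vessel walls, 0.70 (0.37 to 1.05). Vim, vimentin, had 0.68 (0.53 to 0.83). Of the 8 measured mesenchymal transition genes 3 were 2-fold higher, Acta2, Col1a1 and Col3a1, whose log2 ratios over unmixed cells were 1.84, -0.20 and 1.19. In fatty acid handling 0 of 10 were past 2-fold, with Cd36 at -0.42 (-0.53 to -0.31). Glycolysis and hypoxia genes had 0 of 14 past 2-fold, with Ldha, lactate dehydrogenase, at 0.64 (0.31 to 0.99) and Pgk1 at 0.90 (0.28 to 1.57). Ldha and Pgk1 were at 0.64 and 0.56 in fibroblasts and at 0.77 and 0.84 in macrophages. Junction genes had 0 of 12, haemostasis genes 0 of 7 and vasoactive genes 0 of 10 past 2-fold, and of the BMP and TGF-beta genes 2 of 14 were higher. Over unmixed cells, 2 of 13 glycolysis and hypoxia genes were lower, and 0 of 13 BMP and TGF-beta genes were higher and 1 was lower.

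The receptor that SB225002 blocks was at or under the limit of detection in these cells. Cxcr2 had 0, 1 and 2 UMIs in the endothelial cells after sham surgery, MI and MI with SB225002, in 0, 1 and 2 cells, at or under the floor of 3 counts, so no fold is given. Outside the rule it was at 11.7, 25.9 and 34.5 CPM, and the first of these lies under the 12.8 CPM that 3 counts make in the endothelial cells of P10-sham_vehicle, so such a level was not detectable there. In P10-MI_vehicle and P10-MI_SB225002 the floor of 3 counts makes 10.2 and 3.98 CPM. Both lie under the level outside the rule, and Cxcr2 in the endothelial cells was under both floors. For the 0 of 37 cells with a UMI, the floor of 3 counts makes a share of 8.11%, and the upper Clopper-Pearson bound was 9.49%. Igf1, a growth factor that reparative macrophages make, was at 89.6, 68.2 and 67.7 CPM in endothelial cells and 377, 340.0 and 293 CPM outside the rule, and its log2 ratio in endothelial cells was -0.39 (-1.35 to 0.56) after MI and -0.01 (-0.78 to 0.81) with SB225002.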

How the data were processed

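The 3 libraries (BMKGENE DG1000, NovaSeq) were deposited as UMI counts for each gene and barcode, not normalized. The submitters' processing notes name mm10 and Seurat 4.1.0, and the aligner is not given in the sources used here. Cells were chosen by the stated rule, and their UMIs were summed per library and scaled to 1000000 (CPM). Doublets were not removed. Sums carry exact Poisson intervals, ratios exact conditional binomial intervals, and differences between cell types Wald intervals, all at 95% and all for counting error only, which the 234319 to 753722 endothelial UMIs per library limit. A gene was measured with at least 20 UMIs over both libraries. A gene with 0 UMIs in 1 library was set to a floor of 3 counts there.

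Named genes were the markers of the rule, the 10 highest and 10 lowest log2 ratios per comparison (ranked by the interval's bound nearest 0, with at least 100 CPM in either library and at least 2 times the CPM outside the rule), list members with at least 100 CPM and an interval that excludes 0, well-known members whatever their values, and Pecam1, Kdr, Fos, Jun, Fn1, Igf1 and Cxcr2. Members and lists were chosen with earlier results of these data known. No test was made, with 1 library per condition. Alternatives varied the rule, the mitochondrial limit, the scaling (DESeq2 1.42.0 size factors, edgeR 4.0.16 TMM), the minimum count, the fold, depth (thinning to 1000 UMIs), the removal of leukocyte RNA and dividing cells. Clusters came from 15 principal components and igraph 0.11.9. Python 3.11.15, NumPy 2.4.6, SciPy 1.17.1, scikit-learn 1.9.0 and R 4.3.3 were used. The ratios were run on simulated counts drawn with counting error alone, as the intervals assume. That run could not test spread between cells or libraries.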

Additional observations from a re-analysis of the deposited data

Results flagged for a closer look

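Some genes had a log2 ratio in endothelial cells opposite in sign to that in fibroblasts or macrophages of the same libraries, with both intervals on their own side of 0. After MI, Plvap was at 2.58 in endothelial cells and -1.57 in fibroblasts, Igfbp3 at 2.18 against -1.89 in fibroblasts and -2.60 in macrophages, and Col15a1 at 1.20 against -0.30 in fibroblasts. With SB225002, Clu was at 1.81 and Myh10 at 1.62 in endothelial cells against -0.85 and -0.49 in macrophages, and H19 was at -1.28 against 1.05 in fibroblasts and 0.96 in macrophages. One endothelial cell of P10-MI_vehicle held 76.0% of the H19 UMIs there, and 1 of P10-MI_SB225002 held 46.7% of those of Clu. These differences were not tested, because each cell type has 1 library per condition and the intervals cover counting error only. The intervals of the differences, as an example, were 2.75 to 5.56 for Plvap and 1.06 to 1.95 for Col15a1 between endothelial cells and fibroblasts.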

How the results depend on the processing

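No paired analysis was possible because each condition has 1 library and the labels give no replicate numbers. No error but that of counting was given, and the 53 endothelial cells of P10-MI_vehicle, of which 1 carried most of the neutrophil RNA, limit both comparisons. The alternatives of unmixed cells, of no C1q limit and of list medians under each setting were chosen after seeing the data. The cause was not tested where a value moved.

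The share of endothelial cells with SB225002 minus vehicle was 1.82 points, 2.74 with no C1q limit and 0.820 after thinning. The difference in dividing cells was 7.64 points after thinning, with an interval that includes 0. Genes past 2-fold after MI numbered 459, but 72 after thinning (736 genes tested), 4849 with no minimum count, 92 with at least 50 UMIs and 1331 at 1.5-fold. With SB225002 they numbered 959, against 312, 5216, 302 and 2408 under the same settings. In both comparisons the counts with no minimum include genes placed past 2-fold by the floor of 3 counts where they had 0 UMIs. With SB225002 those with no minimum were 1350 higher and 3866 lower, a split that gives no direction for this reason. The median of the DNA replication genes with SB225002 was 0.55 without dividing cells, and that of the immediate-early genes passed 2-fold with DESeq2 size factors (-1.02), TMM (-1.01) and the mean over cells (-1.14).

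Thinning kept the direction of 47 of 63 named ratios after MI and 82 of 87 with SB225002, and 5 or more markers kept 54 of 60 after MI and 86 of 87 with SB225002. Of the named genes past 2-fold, some had the opposite sign after thinning. After MI these were Cdh11 (-1.49), Gm11290 (0.83), H2-Ab1 (-1.08), Mmp12 (-1.08), Postn (0.094) and Slco2a1 (-0.076). With SB225002 this was Cdh11 (0.41). A count of 0 was set to the floor of 3 counts in these and in the 47 of 63 named ratios, and thinning was a random draw. Mmp12 had 0 UMIs in P10-sham_vehicle before thinning, so its negative value comes from the floor. H2-Ab1 was in 1 cell of that library. Signs at such counts do not show that a ratio turned. With C1q under 0.1% the genes of opposite sign were H2-Ab1 after MI (-0.15), and Cd74 (3.55), H2-Ab1 (1.51) and H2-Eb1 (0.92) with SB225002. With 5 or more markers they were Hmcn1 (-0.15) and Prox1 (0.50) after MI, and Fn1, at -0.95 and so under 2-fold, was at 0.84. S100a4 after MI turned without cells that held leukocyte genes (-1.74), in unmixed cells (-1.47) and as a mean over cells (-0.23), and H2-Ab1 was at -0.0055 without such cells. Hbb-bs with SB225002 was at 0.71 in unmixed cells, and Top2a at -0.31 without dividing cells. The DESeq2 and TMM scalings kept the direction of all 64 named ratios after MI and all 87 with SB225002.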
